A study of Mus musculus with 12 samples.

Results

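Motor proteins carry cargo along microtubules, and 69 of the 21937 genes in the table encode the kinesins, their light chains, the dyneins and the dynactin subunits. They were chosen by symbol alone, namely every gene whose symbol starts with Kif or Kifc and a digit, Klc1 to Klc4, symbols starting with Dync1, Dync2, Dynll, Dynlrb or Dynlt, and Dctn1 to Dctn6. By textbook function they were sorted into 15 cargo-carrying kinesins, 4 kinesin light chains, 12 mitotic kinesins, 15 other kinesins, 5 subunits of cytoplasmic dynein 1, 2 of dynein 2, 10 dynein light chains and 6 dynactin subunits. Myelin, the membrane that oligodendrocytes wrap around axons, was purified from the brains of wild-type male c57Bl6/N mice as a light-weight membrane fraction, and its RNA was sequenced. There were 3 libraries at each of 4 ages, P18 and P75 in postnatal days and then 6 months and 24 months, and 12 in all. The paper states individual brains for the 6-month libraries, and 1 mouse per library was assumed at the other ages. Age is the only difference between groups that the labels give, and whether the ages were prepared or sequenced together is not given in the sources used here. No brain lysate or other tissue was used here as a control. A p-value between ages sets the difference of their means against the spread between mice of 1 age. It cannot tell age from a difference in preparation.

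Kinesins mostly walk towards the plus ends of microtubules and cytoplasmic dynein walks towards the minus ends, with dynactin as its cofactor and light chains and adaptors linking either motor to its cargo. In oligodendrocytes, mRNA of myelin basic protein (Mbp) travels in granules along microtubules into the myelin sheath, where it is translated. Axons rely on the same motor families for long-range transport, whereas mitotic kinesins move chromosomes and spindle microtubules in dividing cells.

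Values are normalized read counts, that is the reads on the exons of a gene divided by a size factor of the library. The libraries held 20299052 to 27214385 reads on genes, and 1 read was worth a normalized count of 0.812 to 1.19. Mbp took 4.76% to 20.8% of these reads, with 9.47% to 20.8% at P18. The highest and lowest Mbp library of 1 age differed 2.61-fold at P18 and 1.498-fold at P75, and later 1.84-fold at 6 months and 1.48-fold in the 24-month group. Markers of other cells were present in the myelin fraction. All 16 neuron markers in the table were tested, and their summed count lay between 230775 and 290031 in the 12 libraries, with no marker at 0 in every library. Snap25 was the largest part of this sum, and single markers moved in both directions. From P75 to 6 months the mean of Snap25 went from 141430 to 88328 and that of Syt1 from 3851 to 19472. The 10 oligodendrocyte markers summed to 354172 to 632473 at P18 and to 196513 to 333913 at the later ages. The 12 microglia markers summed to between 6866 and 7818 in the P18 libraries and between 17238 and 21200 in the 24-month libraries, and 11 of the 12 rose between these ages. In such a mixture of RNA, fewer cells of a type and less RNA per cell cannot be told apart.

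Of the members, 60 averaged 10 or more over the 12 libraries, and only these were tested. They comprised all 15 cargo-carrying kinesins, all light chains of kinesin, 9 of 12 mitotic kinesins, 12 of 15 other kinesins, both dynein complexes in full, 7 of 10 dynein light chains and all 6 dynactin subunits. Dynlt1c, Dynlt1e, Dynlt1f, Kif2b and Kif4b had no read in any of the 12 libraries, and Kif12 had 1 read in a single P18 library. Dynlt1 copies, Kif4 with Kif4b and Kifc1 with Kifc5b are near-identical pairs or groups, so reads that match more than 1 copy could have been lost or shared and their values are uncertain. The motor genes together took 1.23% ± 0.05 (SD, n = 3) of all normalized counts at P18, 1.24% ± 0.14 at P75, 1.91% ± 0.21 at 6 months and lastly 1.64% ± 0.04 at 24 months. The values at 6 and 24 months did not overlap those at P18 and P75. This share is weighted by the most abundant genes. From P75 to 6 months the mean of Kif5a alone went from 49884 to 140938, and that of the summed kinesins from 169049 to 315301. In the same step 16 members were called up and 16 down (limma, adjusted p under 0.1). These were 26.7% each of the 60 tested, beside 31.2% up and 29.4% down of all genes tested. All normalized counts include those of Mbp, whose share of the reads was highest at P18.

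Kif5a, a heavy chain of conventional kinesin (kinesin-1), had the highest mean level of the motor genes at each of the 4 ages. Levels of different genes were compared per kilobase of merged exon length. At 6 months Kif5a stood at 20976 ± 3679 (SD, n = 3) per kilobase and ranked 26th of 21135 genes with a length. Dynll2, a light chain that dynein shares with other proteins, followed at 9025 ± 1709 per kilobase. At P75 the pair differed by less than their SDs, with 7424 ± 1867 for Kif5a and 7223 ± 1015 for Dynll2. The other kinesin-1 heavy chains, Kif5b and Kif5c, ranked lower at the young ages, with 2723 ± 977 and 3610 ± 565 per kilobase at P18, where Dynlrb1 (7305 ± 80.7), Klc1 (5766 ± 399) and Dctn2 (5116 ± 450.1) stood above them. The remaining levels are those of 6 months. Kif5b stood at 4973 ± 1232, the dynein light intermediate chain Dync1li2 at 4580 ± 1105, the kinesin light chain Klc1 at 4530 ± 478 and Kif5c at 3958 ± 778.7 per kilobase, and neighbours in this group differed by less than the larger of their SDs. Kif1a and Kif1c, kinesins of the vesicle-carrying kinesin-3 family, lay at 3886 ± 877 and 3443 ± 1082 per kilobase. Among mitotic kinesins Kif22 was highest with 19.9 ± 5.01 per kilobase, followed by Kif4 at 14.7 ± 2.46 and Kif20a at 14.7 ± 3.12. Of the other kinesins Kif21a led at 932 ± 52.3, ahead of Kif2a at 299 ± 16.9 and Kif21b at 125 ± 15.7 per kilobase. Per kilobase of the longest transcript instead, Klc1 stood at 7366, above Kif5b at 6097, Dync1li2 at 4580 and Kif5c at 4123. Kif5a at 23431 and Dynll2 at 9966 remained above Klc1 by that length.

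Cargo-carrying kinesins changed in both directions. From P18 to P75, 5 of 15 rose and 5 fell. In the second step, from P75 to 6 months, 8 rose and 2 fell. Between 6 and 24 months 6 fell and none rose. Over the whole span from P18 to 24 months 6 rose and 2 fell. The tests were made with limma, with Benjamini-Hochberg adjustment over all 14634 genes tested, and a gene was called at an adjusted p under 0.1. The share of all genes that rose and fell was 25.9% and 22.9% from P18 to P75, 31.2% and 29.4% between P75 and 6 months, 16.6% and 12.7% between 6 and 24 months, and 34.7% and 34.3% from P18 to 24 months. Against these shares, the 8 of 15 that rose by 6 months and the 6 of 15 that fell by 24 months lay above the background, and the counts of the first step were 33.3% in either direction. Of the 6 falls, 4 lost their call without 6-month replicate 1, and 3 did so without 6-month replicate 2 or without any 24-month replicate. Of the 5 rises of the first step, that of Kif5b lost its call in several settings given below. Of the 5 falls of the first step, that of Kif1a lost its call without P18 replicate 2 or P75 replicate 3. The fall of Kif3a (-0.18, adjusted p = 0.0886, limma) lost its call without any P18 library or P75 replicate 1 or 3. It was also lost without 6-month replicate 2 or 24-month replicate 2 or 3. The same held with the replicate block, without a filter, with quantile normalization and with only the 2 ages fitted. The median change of the class was -0.00 on the log2 scale in the first step, 0.48 in the second and -0.25 in the third, beside 0.02, 0.01 and 0.03 over all genes.

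Kif5a (chr10:126662755-126700136, minus strand, mm9) is the kinesin-1 heavy chain best known from neurons. Its normalized read count was 62865, 79929 and 52729 at P18, 63497, 47366 and 38789 at P75, 136368, 167627 and 118821 at 6 months, and 113314, 117528 and 107895 at 24 months. Every library of 6 and 24 months lay above every library of P18 and P75. Kif5a rose 2.86-fold from P75 to 6 months (log2 change 1.51 ± 0.21 SE, adjusted p = 2.39e-05, limma), among the 3 largest rises of that step together with Dync1li1 and Kif1a. From P18 to 24 months it rose 1.76-fold (adjusted p = 0.00315). In this step from P75 to 6 months, 11 of 16 neuron markers also rose and 4 fell, and their part in the rise of Kif5a was not tested. Its share of the summed count of cargo-carrying kinesins was 37.3% ± 1.89 (SD, n = 3) at P18, 30.9% ± 2.82 at P75, 46.3% ± 0.891 at 6 months and lastly 43.9% ± 0.862 at 24 months.

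Kif5b, the widely expressed kinesin-1 heavy chain, had its lowest mean at P18. It stood at 21291, 26711 and 12400 at P18, 32277, 24153 and 27907 at P75, 32639, 47221 and 30477 at 6 months, and 38746, 39253 and 31988 at 24 months. All libraries of 24 months exceeded all of P18. The rise from P18 to 24 months was 1.90-fold (log2 change 0.93 ± 0.23 SE, adjusted p = 0.00211, limma). From P18 to P75 it was called at an adjusted p of 0.0693, with overlapping libraries, and the call was lost without P18 replicate 3 (adjusted p = 0.331), P75 replicate 1 (0.204) or P75 replicate 3 (0.131). The call was also lost with edgeR (0.106), DESeq2 (0.157), quantile normalization (0.235), no filter (0.107) and only the 2 ages fitted (0.104). Kif5c, the third kinesin-1 heavy chain, had its lowest mean at P75. Its counts were 24128, 30382 and 22847 at P18, 19602, 16952 and 17723 at P75, 27013, 34352 and 23444 at 6 months, and 24622, 25100 and 22474 at 24 months. It fell 1.42-fold to P75 (adjusted p = 0.0114) and rose 1.55-fold to 6 months (adjusted p = 0.00185), without overlap in either step. The ratio of Kif5a to Kif5b was 3.40 ± 0.74 (SD, n = 3) at P18, 1.77 ± 0.33 at P75, 3.88 ± 0.31 at 6 months and lastly 3.10 ± 0.24 at 24 months, so that every P75 library lay below every other library in this ratio.

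**Figure D1:**
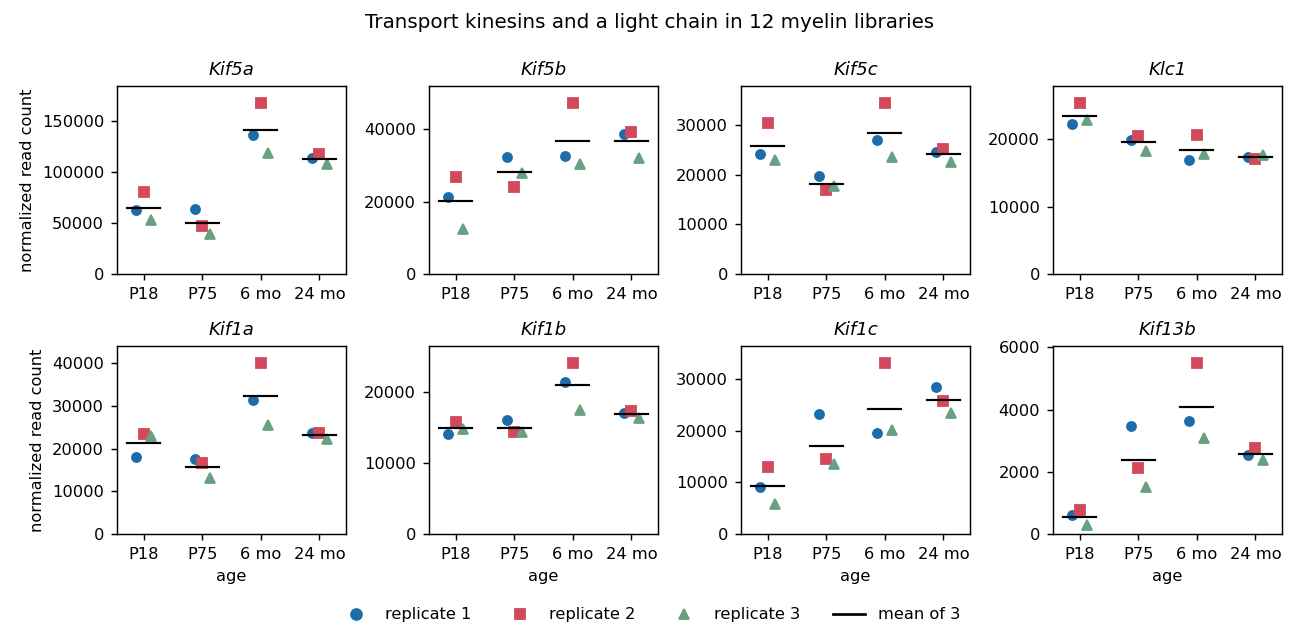
Normalized read counts (vertical axes, linear and starting at 0) of Kif5a, Kif5b, Kif5c, Klc1, Kif1a, Kif1b, Kif1c and Kif13b at the 4 ages, with 1 point per library, colour and shape by replicate number, and a line at the mean of 3. Kif5a lies between 107895 and 167627 at 6 and 24 months and at or below 79929 before, while Kif13b rises from P18 to 6 months and Klc1 is highest at P18.

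The Kif1 genes belong to the kinesin-3 family, and their courses were not tested against each other. Kif1a, a carrier of synaptic vesicle precursors, counted 17923, 23357 and 22994 at P18, 17472, 16592 and 13162 at P75, 31351, 40009 and 25529 at 6 months, and 23642, 23731 and 22351 at 24 months. The 6-month libraries lay above all others. Kif1a rose 2.03-fold from P75 to 6 months (log2 change 1.02 ± 0.16 SE, adjusted p = 6.82e-05, limma) and fell 1.37-fold to 24 months (adjusted p = 0.0578). The latter call was lost without either 6-month replicate 1 or 2 or any 24-month replicate, with adjusted p from 0.119 to 0.247. Its fall from P18 to P75 (log2 change -0.45, adjusted p = 0.0353) was lost without P18 replicate 2 (0.115) or P75 replicate 3 (0.163). Kif1b, which carries mitochondria and vesicles, had 14096, 15776 and 14794 at P18, 15958, 14373 and 14252 at P75, 21338, 23979 and 17436 at 6 months, and 17052, 17270 and 16281 at 24 months. It rose 1.40-fold from P75 to 6 months (adjusted p = 0.00254) with no overlap. Like Kif1a it fell to 24 months, also without overlap (-0.30 ± 0.12, adjusted p = 0.0807), a call lost without 6-month replicate 1 or 2 or any 24-month replicate (0.154 to 0.304).

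Kif1c (chr11:70514050-70545466, plus strand, mm9), a fast kinesin that also carries mRNA, had its lowest mean at P18. It was 9031, 12908 and 5848 at P18, 23180, 14520 and 13626 at P75, 19537, 33087 and 20234 at 6 months, and 28536, 25800 and 23405 at 24 months. No P18 library reached any later library. Kif1c rose 1.89-fold from P18 to P75 (log2 change 0.92 ± 0.26 SE, adjusted p = 0.00919, limma) and was 2.93-fold higher at 24 months than at P18 (1.55 ± 0.26, adjusted p = 6.32e-05). From P75 to 6 months its change of 0.50 did not pass the test (adjusted p = 0.109). In the fit with a replicate block it passed (adjusted p = 0.0647), although the labels do not pair mice of different ages. The ratio of Kif1c to Kif1b went from 0.618 ± 0.212 (SD, n = 3) at P18 to 1.53 ± 0.12 at 24 months.

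Kif13b and Kif13a, kinesins that transport phosphoinositide-linked and endosomal cargo, rose in the youngest step. Kif13b (chr14:65271439-65425133, plus strand, mm9) had 598, 783 and 290 at P18, 3483, 2126 and 1518 at P75, 3634, 5489 and 3072 at 6 months, and 2545, 2759 and 2374 at 24 months. Each P18 library was under every later library. The rise to P75 was 4.35-fold (log2 change 2.12 ± 0.31 SE, adjusted p = 6.6e-05, limma) and that from P18 to 24 months 4.96-fold (2.31 ± 0.31, adjusted p = 6.99e-06). The further rise to 6 months (0.82, adjusted p = 0.0354) was lost without P75 replicate 3 (0.187) or 6-month replicate 2 (0.165). Kif13a counted 688, 806 and 573 at P18 and 1272, 1055 and 970 at P75, a 1.60-fold rise without overlap (0.68 ± 0.13, adjusted p = 0.000746). From 1225, 1438 and 1056 at 6 months it fell to 952, 953 and 880 at 24 months, without overlap (-0.41 ± 0.13, adjusted p = 0.0419). That call was lost without 6-month replicate 1 (0.103) or 2 (0.180) or 24-month replicate 3 (0.109). Kif13b was also lower at 24 than at 6 months in every library (-0.63 ± 0.31), a change that did not pass the test (adjusted p = 0.161).

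The kinesin-2 genes Kif3a, Kif3b and Kif3c, whose products carry vesicles and ciliary cargo, all fell from 6 to 24 months. Kif3c was 1830, 1890 and 1970 at P18, 1352, 1405 and 1112 at P75, 2276, 2130 and 1933 at 6 months, and 1248, 1432 and 1476 at 24 months. It fell, rose and fell again, with no overlap in any step, and the last fall was 1.53-fold (log2 change -0.61 ± 0.10 SE, adjusted p = 0.00143, limma). Kif3b fell from 1152, 1032 and 1014 at 6 months to 818, 837 and 836 at 24 months (-0.36 ± 0.08, adjusted p = 0.00831). Kif3a went down more evenly, from 5445, 5148 and 5439 at P18 to 3652, 3924 and 4047 at 24 months (-0.46 ± 0.08, adjusted p = 0.000123). Its last step alone (-0.25, adjusted p = 0.0458) was lost without 6-month replicate 1 (0.173) or 24-month replicate 1 (0.160) or 2 (0.109). Kif17 lay between 233 and 337 in all libraries and passed no test between ages. Kifc3 lay between 693 and 1030. It was called only from P75 to 6 months (-0.23 ± 0.10, adjusted p = 0.0600), with overlapping libraries, and that call was lost without P75 replicate 1 (0.115) or 2 (0.163) or 6-month replicate 1 (0.191) or 3 (0.165). Kifc2, a minus-end kinesin of neurons, was 5389, 5894 and 7708 at P18, 4499, 4374 and 3184 at P75 and 6583, 7251 and 6911 at 6 months, rising 1.74-fold in the second step (adjusted p = 0.000172).

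Kinesin light chains bind the kinesin-1 heavy chains to cargo. Klc1, the most abundant, was highest at P18 with 22315, 25336 and 22784, followed by 19852, 20486 and 18232 at P75, 16904, 20632 and 17801 at 6 months, and 17309, 17080 and 17621 at 24 months. From P18 to 24 months Klc1 fell 1.35-fold (log2 change -0.44 ± 0.11 SE, adjusted p = 0.00229, limma). Klc2 had its highest mean at 6 months, with 2659, 2836 and 3055 at P18, 2210, 2234 and 1627 at P75, 3906, 4255 and 3818 at 6 months, and 2981, 3054 and 3282 at 24 months. All 3 libraries of 6 months lay above all others. Klc2 fell 1.42-fold to P75 (adjusted p = 0.00157) and rose 1.99-fold to 6 months (adjusted p = 2.74e-06). Its fall to 24 months (-0.36, adjusted p = 0.0305) was lost without 6-month replicate 2 (0.110). Klc4 stayed between 465 and 624 in the 12 libraries and passed no test between ages. Klc3 was near the detection limit with 7.74 to 28.4, and its rise from P75 to 6 months (0.90, adjusted p = 0.0199) was lost without P75 replicate 3 (0.1002).

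Mitotic kinesins were scarce beside the cargo carriers. Their 12 summed values made up 0.242% ± 0.052 (SD, n = 3) of the counts of the 42 kinesins at P18, 0.214% ± 0.045 at P75, 0.0979% ± 0.0222 at 6 months and lastly 0.112% ± 0.012 at 24 months. The shares in single libraries were 0.240%, 0.191% and 0.295% at P18, 0.167%, 0.217% and 0.257% at P75, 0.0980%, 0.0757% and 0.120% at 6 months, and 0.103%, 0.106% and 0.126% at 24 months. No library of the 2 older ages reached a library of the 2 younger ones. The summed mitotic count itself went from 431 ± 31.2 to 353 ± 25.5, 300.3 ± 16.7 and 297 ± 16.8, while the cargo-carrying sum went from 173760 ± 28959 to 159799 ± 26715, 304986 ± 58537 and 257134 ± 13794. The cargo-carrying class thus held 94.4% to 96.7% of the kinesin count at every age, so that both sums enter the mitotic share. Of the 9 tested mitotic kinesins 1 rose and 1 fell from P18 to P75, and 1 rose and 2 fell to 6 months. None was called from 6 to 24 months, where limma gave no mitotic kinesin an adjusted p under 0.109. Of all genes 25.9% rose and 22.9% fell in the first step, 31.2% and 29.4% in the second, and 16.6% and 12.7% in the last. Over P18 to 24 months 5 of 9 fell and 1 rose, beside 34.3% and 34.7% of all genes, and the median was -0.54 on the log2 scale. In the cargo-carrying class 2 of 15 fell and 6 rose over that span. The difference between the classes is given as a description, without a test. Kif4b and Kifc5b, near-identical to Kif4 and Kifc1, were placed with the other kinesins and are not in these counts. Kifc5b went from 18.6 ± 4.52 at P18 to 33.0 ± 9.34 at 24 months and was called upwards over that span. Its rise from 6 to 24 months (log2 change 0.85, adjusted p = 0.0572, limma) was lost without 6-month replicate 2 or 24-month replicate 1 or 2.

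Genes of mitosis are often controlled through a CCAAT box and a cell cycle genes homology element with the letters TTTGAA near the start of transcription. Promoter windows of 250 bases before the start, from RefSeq on GRCm38.p6, are shown for 4 mitotic kinesins that fell over the span and for Kif1c as a cargo carrier that rose. Capitals mark each CCAAT or TTTGAA on either strand, so that ATTGG and TTCAAA are matches on the opposite strand, and the rest is in lower case. The windows are chr19:37376132-37376381 (plus strand) for Kif11, chr19:34922108-34922357 (plus strand) for Kif20b, chr7:127042421-127042670 (minus strand) for Kif22, chr9:61946800-61947049 (minus strand) for Kif23 and chr11:70700298-70700547 (plus strand) for Kif1c, each written 5′ to 3′ along its gene.
Kif11: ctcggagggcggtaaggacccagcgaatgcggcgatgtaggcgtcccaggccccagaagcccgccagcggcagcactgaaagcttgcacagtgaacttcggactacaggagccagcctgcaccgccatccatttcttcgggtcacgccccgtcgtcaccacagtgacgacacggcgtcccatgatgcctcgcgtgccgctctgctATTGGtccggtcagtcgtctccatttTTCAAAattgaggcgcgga
Kif20b: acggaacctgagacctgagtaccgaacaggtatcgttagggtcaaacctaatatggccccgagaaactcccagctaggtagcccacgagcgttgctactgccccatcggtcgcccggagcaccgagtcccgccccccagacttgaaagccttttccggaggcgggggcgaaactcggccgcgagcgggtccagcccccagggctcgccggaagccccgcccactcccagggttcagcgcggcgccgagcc
Kif22: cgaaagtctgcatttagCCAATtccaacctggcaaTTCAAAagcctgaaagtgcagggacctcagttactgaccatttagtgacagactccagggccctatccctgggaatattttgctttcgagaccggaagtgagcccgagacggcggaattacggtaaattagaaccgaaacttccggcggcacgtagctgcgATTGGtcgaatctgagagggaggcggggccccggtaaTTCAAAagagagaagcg
Kif23: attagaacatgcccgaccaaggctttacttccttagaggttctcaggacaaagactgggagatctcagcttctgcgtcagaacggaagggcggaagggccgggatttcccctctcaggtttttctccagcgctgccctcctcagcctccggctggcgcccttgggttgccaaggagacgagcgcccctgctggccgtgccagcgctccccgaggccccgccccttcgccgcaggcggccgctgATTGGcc
Kif1c: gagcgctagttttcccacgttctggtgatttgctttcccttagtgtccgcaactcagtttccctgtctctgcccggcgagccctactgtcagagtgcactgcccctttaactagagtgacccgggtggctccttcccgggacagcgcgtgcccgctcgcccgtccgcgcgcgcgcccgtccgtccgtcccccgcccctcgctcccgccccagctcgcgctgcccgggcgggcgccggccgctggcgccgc

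The Kif11 window holds 1 match of each motif, that of Kif22 holds 2 of each and that of Kif23 holds 1 CCAAT. Kif20b and Kif1c have neither word in these 250 bases. A promoter entry was found for 51 of the 69 members. CCAAT occurred in 7 of 11 mitotic windows and in 4 of 12 cargo-carrying windows (10 genes), beside 33.8% of all 32851 windows. TTTGAA occurred in 5 of 11 mitotic windows and 1 of 12 cargo-carrying windows, beside 16.0% of all windows. A match is a run of letters and not a shown binding site. No binding was measured in these samples.

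Kif11, the plus-end motor that pushes spindle poles apart, fell stepwise. Its counts were 45.2, 45.2 and 48.2 at P18, 42.1, 26.9 and 44.2 at P75, 23.6, 27.5 and 31.1 at 6 months, and 19.8, 16.2 and 20.4 at 24 months. The 24-month libraries lay below all others. From P18 to 24 months Kif11 was 2.39-fold lower (log2 change -1.26 ± 0.22 SE, adjusted p = 0.000125, limma), and no single step passed the test. Kif20b, a kinesin of the dividing midzone, had 29.7, 22.6 and 37.2 at P18 and 12.9, 10.8 and 12.03 at 24 months, and was 2.35-fold lower (-1.23 ± 0.26, adjusted p = 0.000657). With the replicate block its change from P75 to 6 months (-0.53) reached an adjusted p of 0.0889, beside 0.101 without it.

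Kif22, a chromosome-arm motor, had 109, 102 and 127 at P18, 66.1, 75.1 and 96.2 at P75, 32.5, 38.2 and 52.6 at 6 months, and 43.6, 60.6 and 54.6 at 24 months. The libraries of 6 and 24 months lay below all younger ones. It fell 1.92-fold from P75 to 6 months (log2 change -0.94 ± 0.20 SE, adjusted p = 0.00102, limma) and was 2.12-fold lower at 24 months than at P18 (-1.08 ± 0.20, adjusted p = 0.000202). The fall to P75 (-0.51, adjusted p = 0.0518) was lost without P18 replicate 3 (0.135), P75 replicate 1 (0.183) or P75 replicate 2 (0.120). Without Kif22 the mitotic share was 0.179% at P18 and 0.165% at P75, and then 0.0844% at 6 months and 0.0919% for the oldest mice.

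Kif20a and Kif23 act in cytokinesis, where they bring regulators to the central spindle. Kif20a was 77.2, 71.2 and 85.4 at P18 and 52.5, 42.2 and 48.1 at 24 months, a 1.63-fold fall without overlap (log2 change -0.70 ± 0.19 SE, adjusted p = 0.00403, limma). Kif23 was 23.8, 23.7 and 26.1 at P18 and 16.8, 16.2 and 16.7 at 24 months. Its fall (-0.54, adjusted p = 0.0765) was lost on leaving out any P18 or 24-month library (0.117 to 0.160), with the replicate block (0.1008) and with each library scaled to the same total (0.180).

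Kif18a and Kif4 were the 2 members of the mitotic class with a called rise. Kif18a, which shortens spindle microtubules, was 29.7, 28.3 and 28.1 at P18, 35.1, 51.0 and 55.3 at P75, 26.0, 24.9 and 25.3 at 6 months, and 29.7, 23.8 and 38.0 at 24 months. P75 stood above both neighbouring ages without overlap. The rise (log2 change 0.67, adjusted p = 0.0241) was lost without P75 replicate 3 (0.102), and the fall to 6 months was 1.79-fold (-0.84 ± 0.22 SE, adjusted p = 0.00472, limma). Kif4, a chromokinesin, had 65.4, 50.9 and 53.2 at P18, 50.1, 38.0 and 42.0 at P75, 78.8, 95.9 and 69.1 at 6 months, and 66.4, 88.7 and 90.7 at 24 months. The 6-month and 24-month libraries all exceeded the younger ones. Kif4 rose 1.85-fold from P75 to 6 months (0.89 ± 0.19, adjusted p = 0.000836), and from P18 to 24 months by 0.52 (adjusted p = 0.0215), a call that quantile normalization removed (0.266). Kif4 overlaps Pdzd11 on the opposite strand, and the sources used here do not give the strand setting of the counting, so reads of the pair cannot be told apart.

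Kif15 and Kifc1, both of the spindle, passed no test between ages, with 8.88 to 21.1 and 6.49 to 26.0 over the 12 libraries. Kif14, Kif18b and Kif2c stayed below the filter. Kif14 counted 6.88 ± 1.88 (SD, n = 3) at P18 and 4.13 ± 3.03 at 24 months. Kif18b went from 7.36 ± 0.48 at P18 to 0.93 ± 1.61 at 24 months, where a pair of the libraries had no read. Kif2c went from 11.8 ± 6.69 to 4.91 ± 2.89. The whole class rested on 272 to 465 reads per library, so counting error is large for its lower members.

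**Figure D2:**
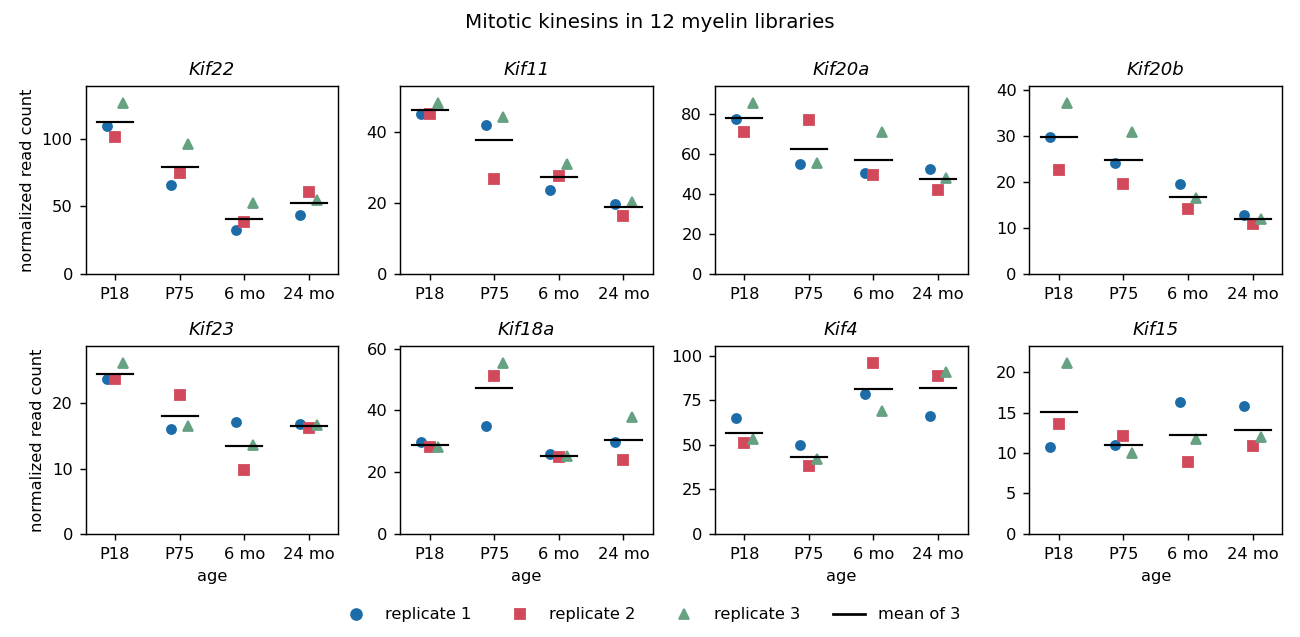
Normalized read counts (vertical axes, linear and starting at 0) of 8 mitotic kinesins at the 4 ages, 1 point per library with the mean of 3 as a line. Kif22, Kif11 and Kif20b are lowest at 6 or 24 months, Kif18a peaks at P75 with up to 55.3, and Kif4 is highest at 6 and 24 months with up to 95.9.

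Most markers of dividing cells fell from P18 to 24 months, while 5 of the 9 tested mitotic kinesins fell and 1 rose. Of the 12 tested markers of dividing cells 10 fell and none rose over that span (median -0.99 on the log2 scale). Of all genes 34.3% fell and 34.7% rose. Of these markers 5 fell from P18 to P75, 7 fell and 1 rose to 6 months, and 4 fell to 24 months. Of the mitotic kinesins 1 fell and 1 rose, 2 fell and 1 rose, and none was called in these steps. Mki67 went from 87.9 ± 15.6 (SD, n = 3) to 11.2 ± 1.29 and Top2a from 84.0 ± 19.4 to 9.23 ± 3.29. The summed level of the 14 markers ranged from 2721 to 3216 (P18), 2599 to 2823 (P75), 2173 to 2274 (6 months) and 2237 to 2332 (24 months), and most of it was Pcna. None of the 14 was at 0 in every library. Their part in the fall of the mitotic kinesins was not tested.

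Among the 12 tested kinesins outside these classes, the ciliary and regulatory Kif19a and Kif26a fell most. Kif19a, which limits the length of motile cilia, was 292, 284 and 349 at P18, 72.2, 99.2 and 73.0 at P75, 49.6, 38.2 and 46.7 at 6 months, and 30.7, 33.5 and 32.4 at 24 months. Each age lay below the one before without overlap. The first fall was 3.78-fold (log2 change -1.92 ± 0.16 SE, adjusted p = 6.82e-07, limma) and the total to 24 months 9.28-fold (-3.21 ± 0.16, adjusted p = 3.7e-10). The last step (-0.46, adjusted p = 0.0611) was lost without 6-month replicate 1 or 3 or any 24-month library (0.103 to 0.199). Of 7 tested markers of ciliated ependymal cells 1 rose and 5 fell from P18 to 24 months, beside 34.7% and 34.3% of all genes. In the first step 1 rose and 1 fell, beside 25.9% and 22.9%. Their summed level ranged from 534 to 773 (P18), 556 to 663 (P75), 451 to 478 (6 months) and 452 to 459 (24 months), and none was at 0 in every library. Their part in the fall of Kif19a was not tested.

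Kif26a, a kinesin without motor activity that acts in signalling, had 166, 167 and 251 at P18, 74.2, 79.7 and 60.8 at P75, 79.6, 62.1 and 60.3 at 6 months, and 67.4, 65.95 and 67.6 at 24 months. Only P18 stood apart, above all later libraries. The fall to P75 was 2.66-fold (log2 change -1.41 ± 0.18 SE, adjusted p = 1.81e-05, limma) and that to 24 months 2.83-fold (-1.50 ± 0.18, adjusted p = 1.82e-06). Kif21a, a regulator of microtubule growth, went from 4155, 4224 and 3872 at P18 to 5423, 5442 and 5672 at P75 (0.43 ± 0.08, adjusted p = 0.000492) and remained above P18. Kif21b rose from 1008, 891 and 690 at P75 to 1294, 1548 and 1227 at 6 months (0.66 ± 0.14, adjusted p = 0.000729). Kif2a, a microtubule depolymerase, stayed at 1831 to 2380 in the 12 libraries and passed no test. In all, 3 of the 12 rose and 4 fell from P18 to 24 months (25.0% and 33.3%), beside 34.7% and 34.3% of all genes.

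Cytoplasmic dynein 1 changed subunit by subunit. Its heavy chain Dync1h1 holds the motor domain, the intermediate chains Dync1i1 and Dync1i2 bind dynactin, and the light intermediate chains Dync1li1 and Dync1li2 bind adaptors. Dync1h1 was 5856, 6743 and 7926 at P18, 10756, 10873 and 8828 at P75, 12407, 10976 and 10826 at 6 months, and 10933, 11767 and 12446 at 24 months. P18 stood below every later library. It rose 1.49-fold to P75 (log2 change 0.57 ± 0.12 SE, adjusted p = 0.00118, limma) and 1.72-fold to 24 months (adjusted p = 2.65e-05). Dync1i1 counted 3017 to 4746 over all libraries and passed no test. Dync1i2 fell from 5344, 5628 and 5040 at P75 to 4270, 3999 and 3915 at 6 months (-0.39 ± 0.09, adjusted p = 0.00118) and stayed there.

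Of the light intermediate chains 1 was called in every step and 1 in none. Dync1li1 (chr9:114597908-114633420, plus strand, mm9) was 536, 540 and 622 at P18, 374, 356 and 277 at P75, 1397, 1129 and 1198 at 6 months, and 694, 778 and 759 at 24 months. No library overlapped with another age. It fell 1.69-fold to P75 (log2 change -0.76 ± 0.12 SE, adjusted p = 0.0001, limma), rose 3.70-fold to 6 months (1.89 ± 0.12, adjusted p = 2.29e-08) and fell 1.66-fold to 24 months (-0.73 ± 0.12, adjusted p = 0.00119). Dync1li2 (chr8:106941574-106966947, minus strand, mm9) had 17153, 22380 and 10834 at P18, 22453, 15099 and 15142 at P75, 18642, 27113 and 17901 at 6 months, and 23123, 21259 and 18718 at 24 months. Its ages overlapped throughout and no comparison passed the test. The ratio of Dync1li2 to Dync1li1 was 30.3 ± 12.1 (SD, n = 3) at P18, 52.3 ± 9.04 at P75, 17.4 ± 5.76 at 6 months and lastly 28.4 ± 4.42 at 24 months. Dynein 2, the ciliary motor, had Dync2h1 at 530 ± 109 at P18 and 920 ± 53.0 at 24 months (0.81 ± 0.12, adjusted p = 2.58e-05), and Dync2li1 fell from 544, 637 and 589 at P75 to 431, 486 and 470 at 6 months without overlap (-0.35 ± 0.10, adjusted p = 0.00792). Its fall over the whole span (adjusted p = 0.0963) was lost without any of P18 replicates 2 and 3, P75 replicate 3, 6-month replicates 2 and 3 and 24-month replicates 1 and 3 (0.104 to 0.336).

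Dynein light chains fell, except for Dynll2 and Dynlt3. Of 7 tested, 3 fell from P18 to P75 and 5 from P75 to 6 months, beside 22.9% and 29.4% of all genes. From 6 to 24 months 1 rose, beside 16.6% of all genes, and 5 fell over the whole span, beside 34.3%. Over that span 8 of 10 oligodendrocyte markers fell too (median -1.21), with summed levels as given above, and their part in the falls of dynein light chains and dynactin was not tested. Dynlrb1, a roadblock light chain, was 7283, 7385 and 7444 at P18, 4838, 5658 and 4981 at P75, 2759, 3538 and 3414 at 6 months, and 3392, 3178 and 3355 at 24 months. The groups did not overlap up to 6 months. It fell 1.60-fold from P75 to 6 months (log2 change -0.68 ± 0.10 SE, adjusted p = 2.98e-05, limma) and 2.23-fold in all (-1.16 ± 0.10, adjusted p = 3.82e-08). Dynlrb1 overlaps Pigu on the opposite strand. Dynll1 went from 7467, 7179 and 7583 at P18 over 4774, 5252 and 5443 at P75 to 3177, 3415 and 4060 at 6 months and 3394, 4043 and 4610 at 24 months, falling 1.46-fold from P75 to 6 months (-0.54 ± 0.11, adjusted p = 0.000763).

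Dynll2 (chr11:87793027-87801035, minus strand, mm9), the close relative of Dynll1, counted 21178, 26418 and 15772 at P18, 22928, 17826 and 18491 at P75, 20454, 29694 and 23877 at 6 months, and 30148, 25788 and 22692 at 24 months. The ages overlapped and no comparison passed the test. The ratio of Dynll2 to Dynll1 went from 2.87 ± 0.80 (SD, n = 3) at P18 and 3.86 ± 0.81 at P75 to 7.01 ± 1.49 at 6 months and lastly 6.73 ± 2.003 at 24 months. Dynlt1b was 76.1, 133 and 91.4 at P18, 48.1, 39.9 and 48.6 at P75, 10.6, 16.0 and 20.4 at 6 months, and 31.7, 33.5 and 27.8 at 24 months. It was 2.13-fold lower at P75 than at P18 (log2 change -1.09 ± 0.25 SE, adjusted p = 0.00228, limma) and 3.09-fold lower at 24 months (-1.63 ± 0.25, adjusted p = 2.67e-05), with the near-identical copies of this gene as a limit. Dynlt3 stayed between 2593 and 3333 and passed no test between ages.

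Dynactin fell in all subunits but the largest. From P18 to 24 months 5 of 6 fell and 1 rose, beside 34.3% and 34.7% of all genes, with a median of -0.60 on the log2 scale. Dctn1, the arm that binds microtubules and dynein, was 3658, 3848 and 4203 at P18, 3772, 4013 and 3187 at P75, 6421, 6713 and 6214 at 6 months, and 4718, 4954 and 5264 at 24 months. The libraries of 6 months lay above all others. It rose 1.77-fold from P75 to 6 months (log2 change 0.82 ± 0.09 SE, adjusted p = 4e-06, limma) and fell 1.30-fold to 24 months (-0.37 ± 0.09, adjusted p = 0.0135). Dctn2, which joins the arm to the filament, was 8027, 7914 and 9246 at P18 and 5661, 6399 and 5766 at P75 and passed no test in the later steps, falling 1.58-fold in all (adjusted p = 6.18e-06). Dctn3, also of the shoulder, was 2661, 2734 and 3266 at P18, 1974, 2059 and 2090 at P75, 1430, 1769 and 1780 at 6 months, and 1660, 1706 and 1688 at 24 months, falling 1.71-fold in all (adjusted p = 3.72e-06).

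The pointed-end subunits Dctn4, Dctn5 and Dctn6 cap the dynactin filament. Dctn5 fell from 2418, 2373 and 2349 at P18 to 1383, 1356 and 1501 at 24 months (log2 change -0.75 ± 0.08 SE, adjusted p = 4.82e-07, limma). Dctn6 was 1946, 1925 and 2562 at P18 and 1944, 2137 and 2067 at P75, and fell 1.47-fold to 1300, 1411 and 1484 at 6 months (-0.55 ± 0.11, adjusted p = 0.000418). Dctn4 was 1974 ± 299 (SD, n = 3) at P18, 1604 ± 102 at P75, 1961 ± 52.4 at 6 months and lastly 1675 ± 89.1 at 24 months. Its fall over the span (adjusted p = 0.0594) was lost without P18 replicate 1 (0.189) or 2 (0.257) and without 24-month replicate 1 (0.169) or 2 (0.117). Dctn1 overlaps a predicted gene and Dctn3 overlaps Il11ra1 on the opposite strand.

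**Figure D3:**
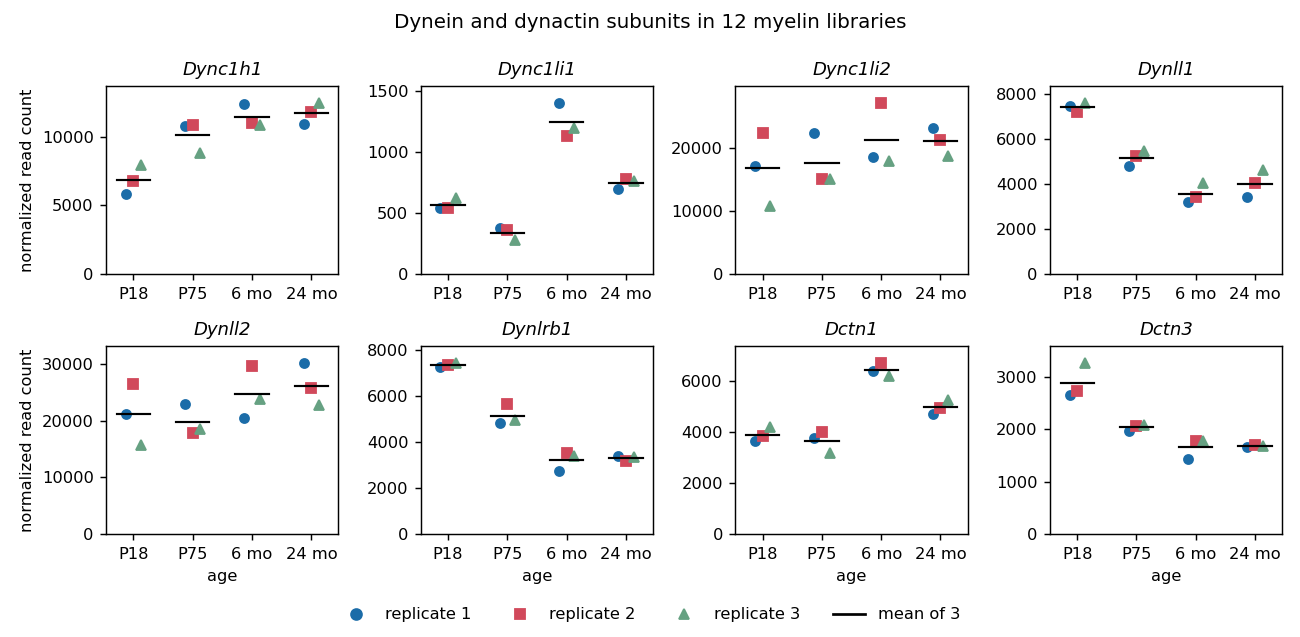
Normalized read counts (vertical axes, linear and starting at 0) of dynein and dynactin subunits at the 4 ages, 1 point per library with the mean of 3 as a line. Dync1li1 peaks at 6 months between 1129 and 1397 while Dync1li2 overlaps between ages, and Dynlrb1 falls from a mean of 7371 to 3308, whereas the ages of Dynll2 overlap.

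Over all 60 tested members 29 were called from P18 to P75 (11 up, 18 down), 32 from P75 to 6 months (16 up, 16 down), 13 from 6 to 24 months (2 up, 11 down) and 38 from P18 to 24 months (14 up, 24 down). The shares that rose and fell were 18.3% and 30.0% in the first step, beside 25.9% and 22.9% of all genes, and 26.7% each in the second, beside 31.2% and 29.4%. In the last step they were 3.33% and 18.3%, beside 16.6% and 12.7%, and over the whole span 23.3% and 40.0%, beside 34.7% and 34.3%. In each comparison of this fit the share that rose was below that of all genes. In the second step the gap was small and depended on the setting. Rises were 50.0% of the calls in this fit and 56.8% with only the 2 ages fitted. Leaving out 1 library gave 44.8% (without P75 replicate 3) to 57.1% (without P75 replicate 1). These consecutive comparisons share the libraries of the age between them. With each library scaled to the same total, which moved the median of all genes from 0.02 to 0.14 in the first step, 12 rose and 13 fell, so that the share of rises among calls was 48.0% instead of 37.9%. Kif1a, Kif3a, Klc1, Kif22 and Dctn4 were the falls of this step that were lost under that scaling. The count of 13 from 6 to 24 months was 7 without 6-month replicate 1 or 2 or without 24-month replicate 1 or 2. It was 8 at a false discovery rate of 0.05.

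**Figure D4:**
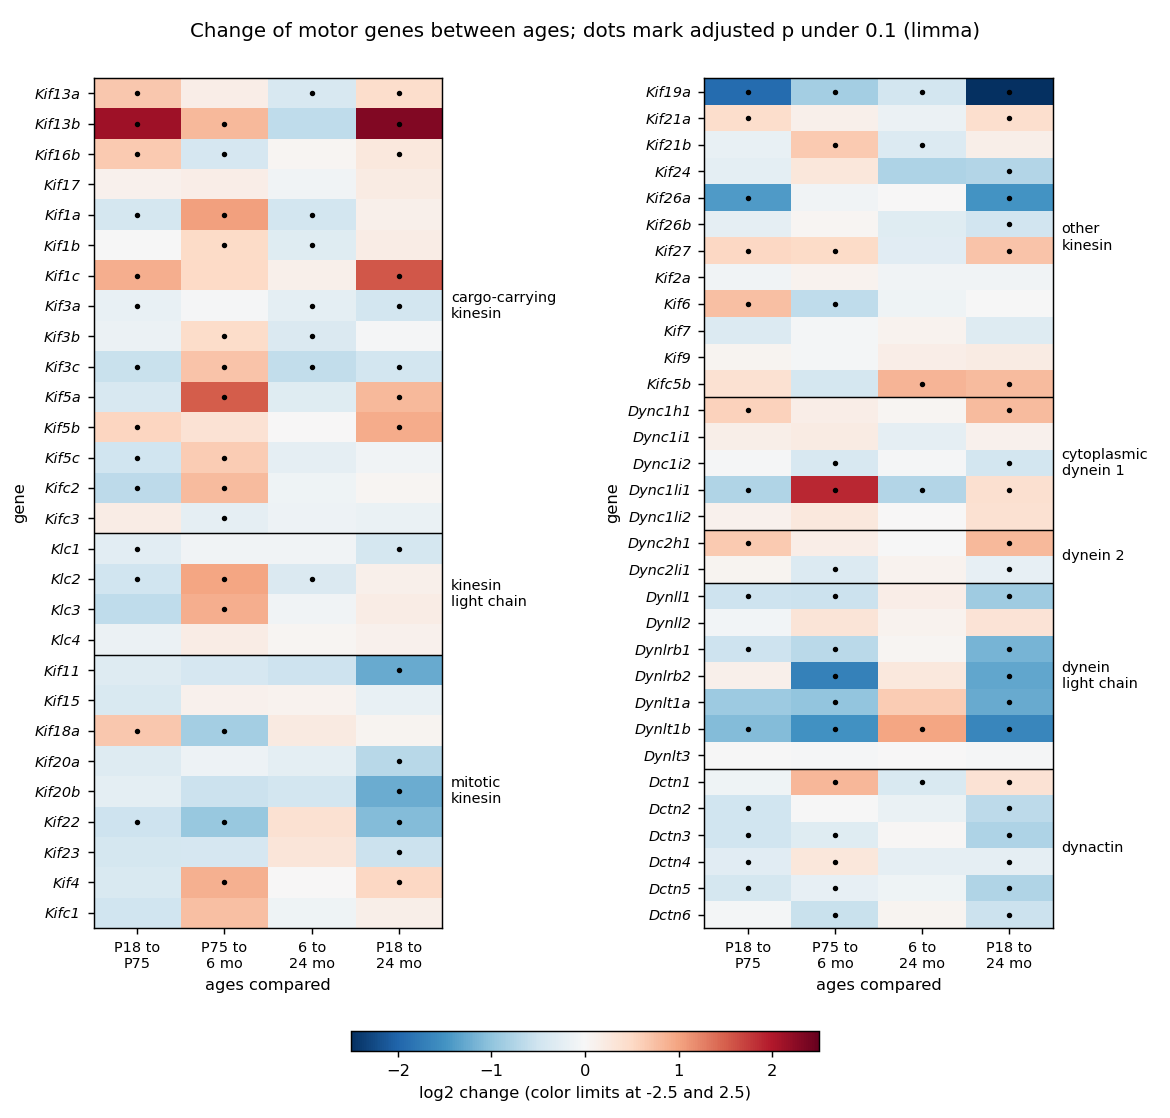
Heat map of the log2 change of the 60 tested motor genes (rows, grouped by class) in the 4 comparisons (columns), coloured from -2.5 to 2.5, with a dot where the adjusted p was under 0.1 (limma). Kif13b has the deepest red from P18 and Kif19a the deepest blue, and most dots of the column from 6 to 24 months lie on blue cells, 11 of 13.

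Of 34 tested adaptors and regulators of these motors, 4 rose and 16 fell from P18 to P75, 21 rose and 3 fell from P75 to 6 months, 2 rose and 13 fell from 6 to 24 months, and 6 rose and 11 fell from P18 to 24 months. The shares of all genes that rose and fell are 25.9% and 22.9%, 31.2% and 29.4%, 16.6% and 12.7%, and 34.7% and 34.3% in the same order. In the first step the largest rises were Hook2 (log2 change 0.63) and Kidins220 (0.60), and the largest falls Trak2 (-1.01) and Rilp (-0.98). Trak2 varied widely, with 40337 ± 17313 (SD, n = 3) at P18 and 19253 ± 5371 at P75. Rilp was low, with 66.8 ± 19.3 and 33.5 ± 11.3. How the calls of single adaptors held under other settings is not given here. Trak2 links kinesin and dynein to mitochondria, and Hook2 is a dynein adaptor. In the second step Ccdc64, a dynein adaptor for secretory vesicles, rose by 1.48 and the kinesin scaffold Mapk8ip2 by 1.37, while Nin fell by 0.29 and Sybu by 0.27. From 6 to 24 months Hook2 (0.37) and Nin (0.31) rose, and Ccdc64 (-0.74) and the dynein adaptor Bicd1 (-0.54) fell most. Over the whole span Kidins220 (1.44) and Hook2 (1.02) rose most, and Rilp (-1.14) and Capzb (-0.83), a subunit of the dynactin filament cap, fell most. Of the 16 neuron markers the counts were 3 up and 6 down, 11 up and 4 down, 1 up and 5 down, and 6 up and 6 down in the 4 comparisons, and their part in these counts was not tested.

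The genes most like Kif5a over the 12 libraries were Ogdhl, Dhdh, Uqcc, Panx2 and Fxr2, with a Pearson r of 0.974, 0.973, 0.972, 0.971 and 0.969 on log2 values among 11304 genes with a mean over 100. Within the motor genes Dctn1 (0.90), Dync1li1 (0.90), Kif1a (0.89), Klc2 (0.88) and Kif1b (0.87) came closest, and Dctn6 (-0.89) and Dync1i2 (-0.86) ran most opposite. These are descriptions, since the 12 libraries fall into 4 ages and share 1 scaling.

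Variation between mice of the same age was followed along Mbp, whose mRNA is itself a cargo of microtubule motors. For each gene a slope was fitted of its log2 level on the log2 level of Mbp, both relative to the mean of their age, so that a slope of 1 means that the gene changed as many fold as Mbp. Of the 60 members 8 had a called slope, all positive, beside 2.52% of all genes with a positive and 0.506% with a negative call. They were 6 of 15 cargo-carrying kinesins, namely Kif13b, Kif1c, Kif5b, Kif5a, Kif13a and Kif5c, together with Dync1li2 and Dynll2. None of the 9 mitotic kinesins, the 12 other kinesins, the 4 light chains of kinesin or the 6 dynactin subunits was called.

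Kif13b had a slope of 0.999 ± 0.136 (SE, adjusted p = 0.000419, limma), Kif1c 0.87 ± 0.08 (adjusted p = 1.87e-05), Dync1li2 0.75 ± 0.08 (adjusted p = 3.53e-05), Kif5b 0.72 ± 0.09 (adjusted p = 0.000244) and Dynll2 0.56 ± 0.07 (adjusted p = 0.000298). The highest library of Mbp was P18 replicate 2, P75 replicate 1, 6-month replicate 2 and 24-month replicate 1, and at each age it was also the highest for Kif1c, Dync1li2 and Dynll2. Kif1c had its lowest library where Mbp had it at all 4 ages. The highest and lowest libraries of Kif1c differed 2.21-fold, 1.70-fold, 1.69-fold and 1.22-fold at the 4 ages in order, beside 2.61-fold, 1.498-fold, 1.84-fold and 1.48-fold for Mbp. These 5 slopes were called in every fit that left out 1 library, with the replicate block and without both P18 libraries farthest from their mean, replicates 2 and 3.

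The slopes of Kif5a (0.48 ± 0.11 SE, adjusted p = 0.0323, limma), Kif13a (0.38 ± 0.08, adjusted p = 0.0135) and Kif5c (0.34 ± 0.08, adjusted p = 0.0468) held less well. All 3 were lost without P18 replicate 2 (adjusted p = 0.211, 0.120 and 0.312 in that order), and with the replicate block. Kif5a was also lost without P18 replicate 3 (0.137), and both Kif5a and Kif5c without 6-month replicate 2 (0.107 and 0.203). Among close relatives of the called genes, Kif13a, Kif5a and Kif5c were called themselves, beside Kif13b and Kif5b. Other relatives passed no test, with Dynll1 at -0.15 ± 0.09 beside Dynll2, Dync1li1 at -0.11 ± 0.10 beside Dync1li2 and Kif1b at 0.16 ± 0.09 beside Kif1c. The difference between the slopes of such relatives was not tested. Kif3a (-0.06 ± 0.07) and Klc1 (0.14 ± 0.08) passed no test either.

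With each library scaled to the same total the median slope of all genes moved from -0.02 to -0.21, and 7 members were called upwards and 13 downwards, beside 1.94% and 29.5% of all genes. Kif5c was the positive call that was lost. Among the adaptors 4 of 34 were called, all upwards, namely Trak2 (0.85 ± 0.10 SE), Plekhm2 (0.43 ± 0.08), Nde1 (0.39 ± 0.08) and Mapk8ip1 (0.27 ± 0.07). Of 10 oligodendrocyte markers 2 were called, Mobp (0.89 ± 0.11) and Opalin (0.46 ± 0.10), and the median slope of that list was 0.28. Of 12 astrocyte markers 1 was called, S100b (0.79 ± 0.13), and of 8 precursor markers 1, Vcan, with a negative slope. None of the 16 neuron markers was called.

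**Figure D5:**
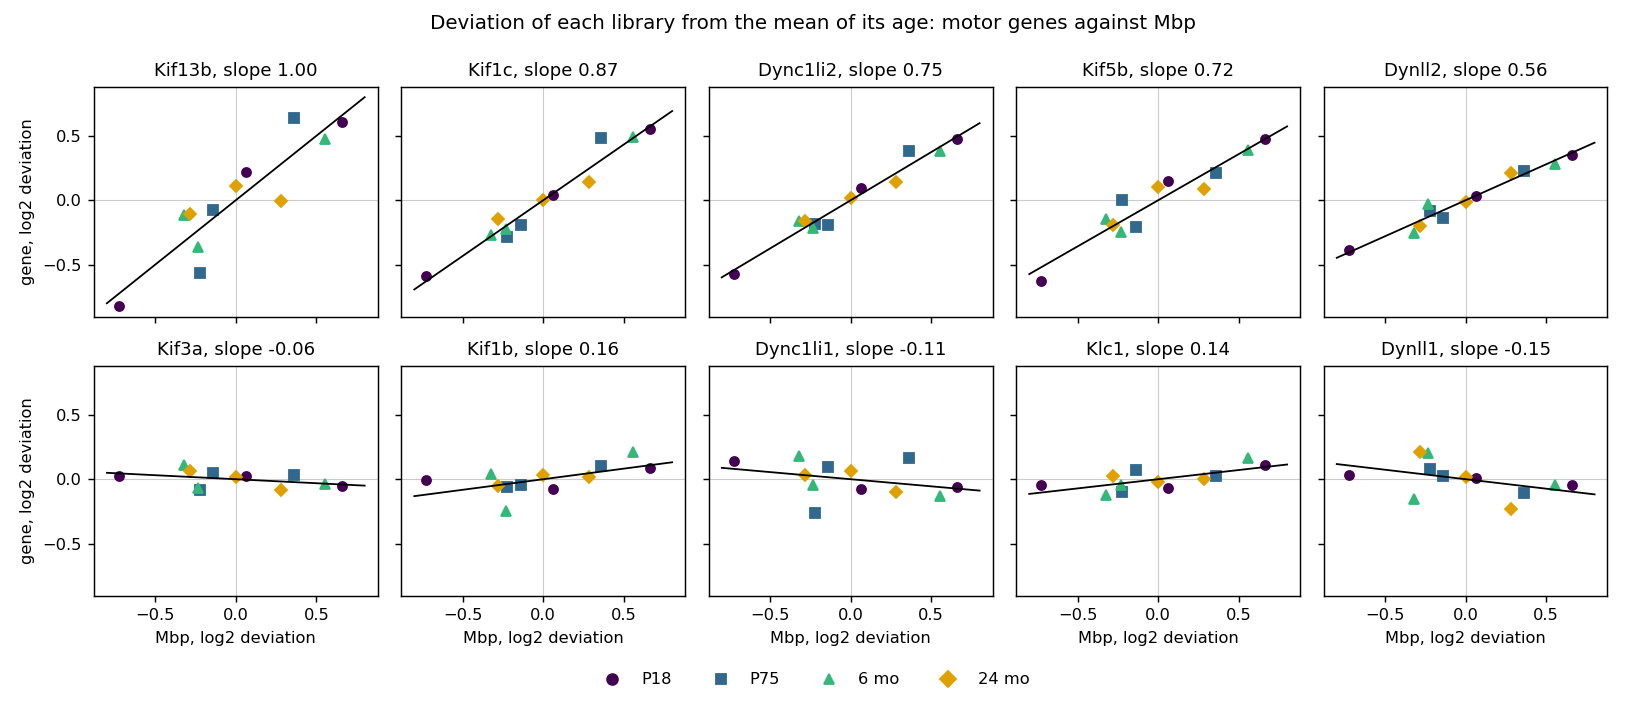
Deviation of each library from the mean of its age on the log2 scale, for 5 motor genes called along Mbp (top) and 5 not called (bottom), against the deviation of Mbp, with the fitted slope as a line and age by colour and shape. Points follow the line in the upper row, with slopes from 0.56 to 0.999, and stay near the horizontal in the lower row, with slopes from -0.15 to 0.16.

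Along the mean of the neuron markers, treated in the same way, 7 members were called, 4 upwards beside 6.59% of all genes and 3 downwards beside 4.19%. Upward slopes were those of Kif26a (2.11 ± 0.67 SE, adjusted p = 0.0767, limma), Dync1h1 (1.54 ± 0.37, 0.0304), Kif3c (1.1005 ± 0.37, 0.0874) and Dctn1 (1.05 ± 0.33, 0.0777). Downward slopes were those of Kif5b (-2.62 ± 0.84, 0.0801), Dynll2 (-1.98 ± 0.68, 0.0968) and Dynlt3 (-1.18 ± 0.36, 0.0694). The marker mean varied by 0.138 at most around its age in log2 units, and the share of called members was close to the background. No member was called without P18 replicate 1 or without P18 replicate 3, and at a false discovery rate of 0.05 only Dync1h1 was called. Leaving out single libraries gave 0 to 9 calls. With each library scaled to the same total 18 members were called upwards and 5 downwards, beside 31.3% and 2.81% of all genes, the median of all genes moving from 0.09 to 0.51, and with quantile normalization 3 and 4. Kif5a had a slope of -0.52 ± 0.93 (adjusted p = 0.789).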

How the data were processed

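Illumina reads were aligned by the authors against mouse build mm9, using TopHat2 (2.0.8 in the submitters' processing notes, which also name SAMtools 0.1.19). The authors counted them per gene with HTSeq 0.5.4p1 and scaled the counts with the size factors of DESeq. The deposited values (a signal, here called normalized read count) cover 21937 genes in 12 libraries, neither log-transformed nor divided by length. Groups came from the sample labels, and 0 columns were left unmapped. Each value was a whole multiple of that of 1 read in 100% of cases (within 0.1 of a read), which gave the recovered reads. In P18 replicate 3, P75 replicate 1 and 24-month replicate 1 that value was close to 1.

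The deposited values were not counts, so limma 3.58.1 (trend, empirical Bayes; R 4.3.3) was fitted to log2(value + 1) of 14634 genes averaging 10 or more, in a single model of the 12 libraries whose only term was age, and called at a Benjamini-Hochberg adjusted p under 0.1. Fold changes are on that scale and understate the change of low genes. Slopes added the level of Mbp, or the mean of the neuron markers, centred within each age. Exact tests of 3 against 3 libraries cannot go below 0.1 and were not used. Members and lists were chosen with earlier results of these data known, and Dynlt1e and Kif4b were put in their classes after the table was seen. Named were the Kif5 and Kif1 genes, all Klc, dynein 1 and dynactin genes, mitotic kinesins above 0, the 3 highest per kilobase in each class, the 3 largest called rises and falls per comparison (mean over 100, no overlap), the 5 largest slopes in each direction and the 5 genes most like Kif5a. Further members whose values are printed (among them Kif3a, Kif3b, Kif17, Kifc2 and Kifc3) were chosen after their values were seen. The text compares a gene's levels with those of others per kilobase of merged exons (GENCODE vM1 on NCBIM37, 96.3% of symbols found). Alternatives included edgeR 4.0.16 and DESeq2 1.42.0 on the recovered reads. The fits were tested on simulated data. Deviations of same-numbered libraries correlated at 0.161, 0.101 and 0.187 between P75 and 6 months, and from -0.213 to 0.029 in the other comparisons. A value over 0.1 was the rule for giving block results, and it does not show that the numbers pair. The labels name no shared batch, and each library is a different mouse, so the replicate block is only an alternative setting.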

Additional observations from a re-analysis of the deposited data

How the results depend on the processing

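The counts of members called between ages stayed within 1.5 times of those reported, except as follows. From 6 to 24 months the count was 8 instead of 13 at a false discovery rate of 0.05, and from P18 to 24 months it was 25 instead of 38 with a filter for a mean over 100, which tested 40 members. Leaving out 1 library gave 24 to 31 calls from P18 to P75, 29 to 39 from P75 to 6 months, 7 to 16 from 6 to 24 months, 34 to 38 from P18 to 24 months, 5 to 8 for the slope on Mbp and 0 to 9 for that on neuron markers. With the replicate block 29, 34, 13 and 38 members were called between ages and 10 along the neuron markers, while the Mbp slope kept 5 of 8. At P75 to 6 months the block added Kif1c and Kif20b and changed no other call, although no label pairs these mice. The Mbp slope also gave 5 calls without the 2 farthest libraries and 20 with each library scaled to the same total, and it could not be fitted after quantile normalization, where Mbp takes the same value in every library. The neuron marker slope gave 1 call at a false discovery rate of 0.05, 3 without a filter, 23 with scaling to the same total and 1 without the 2 farthest libraries. Quantile normalization moved the median of all genes to -0.11 from P18 to 24 months.

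Per kilobase the mitotic share was 0.480%, 0.403%, 0.169% and 0.198% at the 4 ages in order, and without Kif22 it was 0.179%, 0.165%, 0.0844% and 0.0919%. Leaving out 1 library gave 0.215% to 0.268%, 0.192% to 0.237%, 0.0868% to 0.109% and 0.105% to 0.116%. Of the 740 values of single named genes under other settings 663 kept direction and call and 77 kept direction but lost the call. The causes of these differences were not tested. Below the filter depth limits every statement, as for Kif14, Kif18b and Kif2c.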
